A study of Mus musculus with 12 samples.

Results

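Chromatin accessibility was examined at 9 genes that serve as markers of homeostatic microglia, the resident macrophages of the brain, in macrophages sorted from mouse brain tumours. The genes were Tmem119, P2ry12, P2ry13, Gpr34, Siglech, Olfml3, Cx3cr1, Slc2a5 and Sparc, 9 of the 21627 protein-coding genes in the gene table. Each locus was taken as the gene span and 5 kb on either side, on the mm10 build. The 9 loci held 54 of the 117835 regions in the count table, and 2 of those regions belong to both P2ry12 and P2ry13, which lie side by side on chromosome 3. Regions are numbered within a locus by increasing coordinate (r1, r2 and so on).

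Microglia settle in the brain before birth and keep their identity under transforming growth factor beta from the tissue, acting with the transcription factors PU.1, MEF2, SMAD and SALL1. Macrophages that enter a tumour from blood monocytes start without most of that programme. The marker genes encode receptors that sense the surroundings, proteins of the cell surface and secreted proteins. P2ry12 and P2ry13 are receptors for ADP, and P2ry12 steers microglial processes towards damaged tissue. Gpr34 is a receptor for lysophosphatidylserine, and Cx3cr1 is the receptor for fractalkine, a chemokine that neurons display; Cx3cr1 is also used by monocytes. Tmem119 is a membrane protein used to tell microglia from other macrophages. Siglech is a sialic acid-binding lectin that plasmacytoid dendritic cells carry too, and Slc2a5 encodes the fructose transporter GLUT5. Olfml3 and Sparc encode secreted proteins, an olfactomedin-domain glycoprotein and a collagen-binding matrix protein.

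ATAC-seq, in which the Tn5 transposase cuts and tags open DNA, had been run on nuclei of sorted cells from brain tumours of the genotype Ink4a/ArfKO with PDGFB, which all groups share. The 4 groups of 3 libraries each were lipid-laden microglia (LL-MG), microglia without lipid load (MG), lipid-laden monocyte-derived macrophages (LL-MDM) and monocyte-derived macrophages without lipid load (MDM). In the study's model, PDGFB is expressed in Nestin-positive progenitor cells, and no tumour-free brain was among these samples. The sorting gates, the measure of lipid load and the animals' age were not given in the sources used here. Groups were taken from the library names. For 8 of the 12 samples the title names another group than the library name, and for 4 the 2 labels match. Nothing ties a library to an animal without conflict, so that p-values reflect library-to-library spread, which may be technical. With the groups set by the titles instead, 0 of all tested loci, the 9 included, were called between MG and MDM or between LL-MG and LL-MDM (edgeR). Between LL-MDM and MDM 1 of the 9 and 2001 of all loci were called. Every result given here rests on the library names.

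The sequences shown are the open bases just upstream of the transcription start at the 5 members whose promoter window held a region, so that the promoters whose accessibility is compared can be read. RefSeq (GRCm38.p6) gave a promoter for 7 of the 9 members. Slc2a5 and Sparc had no region in the 250 bases upstream of the start, and Tmem119 and Gpr34 were not matched. The bases run 5′ to 3′ in the direction of the gene. Capitals mark matches to motifs searched on both strands. The Siglech sequence ends where the gene span begins.
P2ry12 r9, chr3:59262986-59263113, minus strand: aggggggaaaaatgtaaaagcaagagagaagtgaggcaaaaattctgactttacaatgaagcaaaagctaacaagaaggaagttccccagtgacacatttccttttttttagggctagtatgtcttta
P2ry13 r4, chr3:59210883-59211084, minus strand: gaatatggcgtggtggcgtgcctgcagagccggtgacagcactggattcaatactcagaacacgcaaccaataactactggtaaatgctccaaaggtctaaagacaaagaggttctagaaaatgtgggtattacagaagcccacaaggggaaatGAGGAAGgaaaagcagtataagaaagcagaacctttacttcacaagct
Siglech r2, chr7:55767991-55768153, plus strand: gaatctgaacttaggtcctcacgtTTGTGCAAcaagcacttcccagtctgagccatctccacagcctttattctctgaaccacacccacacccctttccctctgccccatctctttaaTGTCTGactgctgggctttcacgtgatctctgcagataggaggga
Olfml3 r3, chr3:103738002-103738084, minus strand: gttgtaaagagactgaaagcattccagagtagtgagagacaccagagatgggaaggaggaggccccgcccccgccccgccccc
Cx3cr1 r8, chr9:120068297-120068498, minus strand: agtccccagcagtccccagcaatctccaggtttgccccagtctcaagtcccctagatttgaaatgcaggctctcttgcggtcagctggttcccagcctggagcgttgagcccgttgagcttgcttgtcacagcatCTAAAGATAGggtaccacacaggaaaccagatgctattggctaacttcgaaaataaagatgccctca

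The motifs searched in the 250 upstream bases were the PU.1 core GAGGAAG, the IRF motif, the SMAD core CAGACA, the MEF2 motif, the C/EBP motif TTGCNNAA and the AP-1 motif TGANTCA. The PU.1 core was found at P2ry13, at positions -48 to -42 from the start, and 10.6% of 32851 promoters hold it. The MEF2 motif was found at Cx3cr1, at -67 to -58, and 3.20% of promoters hold it. The Siglech promoter held the SMAD core on the opposite strand, at -75 to -70, which 17.1% of promoters hold. It also held the C/EBP motif on the opposite strand, at -169 to -162, which 9.56% hold. No motif of the 6 was in the printed bases of P2ry12 and Olfml3. Outside the printed bases, P2ry12 held the C/EBP motif and Slc2a5 and Sparc each held the SMAD core. The IRF and AP-1 motifs, in 2.98% and 6.75% of promoters, matched none of the 7 upstream sequences. These are matches of letters and not measured binding sites.

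Region totals ran from 1162969 to 18938222 counts per library. CPM are counts per 1e+06 of the scaled region total. In a region, 1 count stood for 0.846 CPM in LL-MDM 1 and for 0.0519 CPM in MDM 2. Loci were scaled by factors of their own, for MG 2 1.03 against 0.888 for regions. Locus and region CPM are therefore not on the same scale. The MG libraries did not agree among themselves. On the second principal component of all tested regions, which held 13.02% of the variance, MG 2 and MG 3 lay at -172.9 and -110.0, against -10.9 for MG 1. The LL-MG libraries lay between 49.15 and 64.6, the LL-MDM libraries between 27.9 and 80.0, and the MDM libraries between -12.25 and -2.117. With the locus factors, MG 2 was the lowest MG library at 8 of the 9 marker loci, and MG 1 at the other, Gpr34. Results that involve MG are also given without MG libraries where that changes a call. Without both MG 2 and MG 3 the MG group is the single library MG 1, which is then assumed to vary like the libraries of the other groups, and a p from such a fit has no replicate of MG behind it. Genes outside the set were used to check the 2 lineages. Summed accessibility at Sall1, the defining microglia transcription factor, was 66.1 to 88.6 CPM in LL-MG, 39.3 to 74.4 CPM in MG, 6.19 to 12.0 CPM in LL-MDM, and MDM held 0.491 to 1.07 CPM. Itga4, an integrin chain of monocyte-derived cells, ran the other way, with 42.1 to 57.2 CPM in LL-MG, 40.0 to 50.6 CPM in MG, 80.6 to 85.5 CPM in LL-MDM, and MDM held 112 to 138 CPM. The gene of the monocyte chemokine receptor, Ccr2, did not follow Itga4. It had 3.11 to 5.76 CPM in LL-MG, 10.3, 42.3 and 28.3 CPM in MG 1, 2 and 3, 6.84 to 10.7 CPM in LL-MDM, and MDM held 22.8 to 27.5 CPM, so that MG 2 and MG 3 lay above every MDM library. Lyz2 and Tgfbi, of the same list as Itga4, were not separated between MG and MDM either. The part of this in the results was not tested.

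Markers of other cell types were summed as well, since a difference in the share of cells and a difference in accessibility per cell cannot be told apart in sorted pools. The 4 of 5 T and NK cell genes with a region summed to 24.5 to 28.8 CPM in LL-MG, 34.4, 76.0 and 46.7 CPM in MG 1, 2 and 3, 44.0 to 48.7 CPM in LL-MDM, and MDM held 61.6 to 68.1 CPM. All 6 oligodendrocyte progenitor or tumour cell genes together summed to 124 to 145 CPM in LL-MG, 72.6 to 101 CPM in MG, 47.0 to 60.7 CPM in LL-MDM, and MDM held 48.0 to 60.0 CPM. The 6 of 7 plasmacytoid dendritic cell genes with a region summed to 442 to 451 CPM in LL-MG, 271 to 410 CPM in MG, 339 to 373 CPM in LL-MDM, and MDM held 384 to 401 CPM. No gene of these lists that had a region stayed under 1 CPM in all libraries; Ncr1, Klk1, Aqp4, Sox9, Syt1 and Snap25 had no region. Astrocyte genes (5 of 7 with a region) summed to 229 to 241 CPM in LL-MG, 141 to 207 CPM in MG, 179.6 to 202 CPM in LL-MDM, and MDM held 185 to 201 CPM. Neuron genes (2 of 4) summed to 70.1 to 78.1 CPM in LL-MG, 48.2 to 60.3 CPM in MG, 43.6 to 56.6 CPM in LL-MDM, and MDM held 53.4 to 69.2 CPM. Border-associated macrophage genes (6 of 6) summed to 143 to 147 CPM in LL-MG, 126 to 150.1 CPM in MG, 184 to 215 CPM in LL-MDM, and MDM held 183 to 194 CPM. Conventional dendritic cell genes (5 of 5) summed to 519 to 556 CPM in LL-MG, 473 to 517 CPM in MG, 464 to 492 CPM in LL-MDM, and MDM held 655 to 717 CPM. MG 2 was the highest of the 12 libraries for T and NK cell genes and the lowest for plasmacytoid dendritic cell and astrocyte genes. Their part in the results at the marker loci was not tested.

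**Figure D1:**
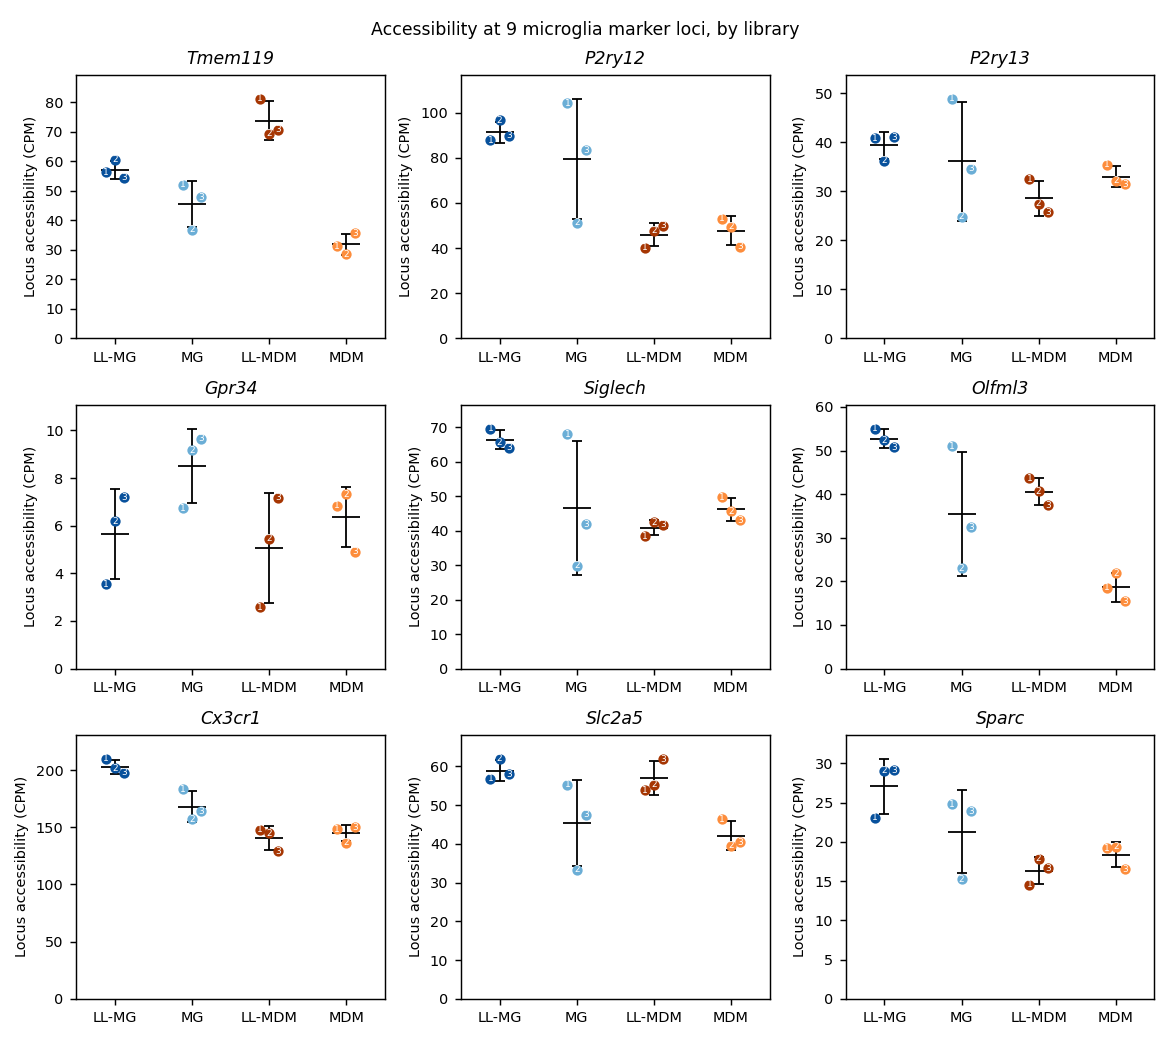
Summed accessibility at each of the 9 marker loci, in CPM, for the 12 libraries. Points are libraries 1 to 3 from left to right, and bars are the group mean ± SD of 3 libraries. Tmem119 is most open in LL-MDM, the other loci in LL-MG except Gpr34, and MG 2 is the lowest MG library in 8 panels.

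The first comparison asked how far microglia and monocyte-derived macrophages without lipid load differ at the marker loci. Of the 9 loci, 4 were more open in MG than in MDM and 0 less open (edgeR quasi-likelihood test, Benjamini-Hochberg adjusted p under 0.05 over 15548 loci), against 19.8% higher and 21.2% lower among all tested loci. The 4 were Tmem119, P2ry12, Olfml3 and Cx3cr1. The median log2 fold change of the 9 was 0.21, against -0.0042 for all loci. Of the 54 regions, 50 passed the filter on low counts, and 26 of them were more open and 6 less open in MG. Among all 77737 tested regions 26.8% were higher and 24.9% lower. The 4 regions that did not pass the filter were P2ry12 r3, Siglech r3, Cx3cr1 r9 and Sparc r4. Of the 22 regions named by the authors as peaks in all 4 groups, 15 were higher and 0 lower. Of the 28 tested regions named in fewer groups, 11 were higher and 6 lower. Such a region may have passed the filter through the group where it is open. The shares among all regions so named were not counted. No locus was lower at an unadjusted p under 0.05, and DESeq2 and limma-voom each called 4 loci higher and 0 lower. Every marker locus was open in both cell types, and no locus differed by more than 1 log2 unit.

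Tmem119 had 52.1, 36.8 and 47.8 CPM in MG 1, 2 and 3, against 31.3, 28.6 and 35.5 CPM in MDM. All MG libraries lay above all MDM libraries, and the difference was 0.51 ± 0.12 (log2, SE; edgeR adjusted p = 0.00152). Olfml3 had 51.03, 23.0 and 32.4 CPM in MG, against 18.5, 21.9 and 15.4 CPM in MDM. Its difference was 0.83 ± 0.21 (edgeR adjusted p = 0.00581), and MG 2 lay just above the highest MDM library. With all libraries thinned to the smallest total, the Olfml3 difference was 0.65 (edgeR adjusted p = 0.165), and with 20 kb on either side it was 0.43 (edgeR adjusted p = 0.0849). With 20 kb on either side the Tmem119 difference was -0.08 (edgeR adjusted p = 0.703). P2ry12 had 104, 51.2 and 83.3 CPM in MG, against 53.0, 49.4 and 40.6 CPM in MDM. Here MG 2 lay inside the MDM range. The difference was 0.67 ± 0.20 (edgeR adjusted p = 0.0185), and without MG 3 it was 0.62 with an adjusted p of 0.0644. Cx3cr1 had 183, 157 and 164 CPM in MG, against 148, 137 and 150.0 CPM in MDM. Its difference was small, at 0.21 ± 0.08 (edgeR adjusted p = 0.0376), and it did not pass when any 1 of MDM 1, MDM 2, MG 1 or MG 3 was left out (adjusted p 0.0652, 0.156, 0.0789 and 0.0705).

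The other 5 loci did not pass between MG and MDM. Siglech had 68.0, 29.9 and 41.8 CPM in MG, against 49.8, 45.7 and 43.1 CPM in MDM. The MG libraries spanned the MDM range from both sides. With MG 1 as the single MG library the Siglech difference was 0.55 (edgeR adjusted p = 0.000676, with the spread taken from the other groups), and without MG 1 it was -0.39 (edgeR adjusted p = 0.00365), so that the direction rested on which MG library was kept. Over the gene span alone it was 0.75 (edgeR adjusted p = 0.0361). P2ry13 had 48.9, 24.8 and 34.6 CPM in MG, against 35.4, 32.2 and 31.4 CPM in MDM. With MG 1 as the single MG library it was at 0.56 (edgeR adjusted p = 0.00408), again with no MG replicate. Slc2a5, with 55.3, 33.3 and 47.5 CPM in MG against 46.3, 39.4 and 40.4 CPM in MDM, was then at 0.39 (edgeR adjusted p = 0.0303). Sparc had 24.8, 15.2 and 23.9 CPM in MG, against 19.2, 19.4 and 16.5 CPM in MDM. Gpr34 was sparse, with 6.73, 9.16 and 9.64 CPM in MG against 6.85, 7.31 and 4.91 CPM in MDM.

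**Figure D2:**
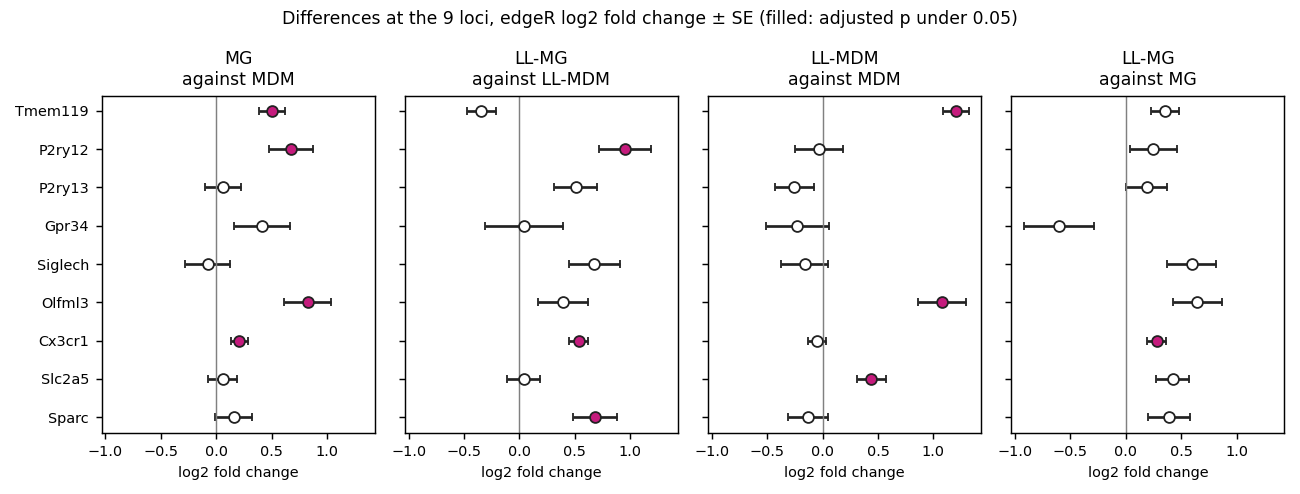
Log2 fold changes ± SE of the 9 loci in the 4 comparisons between groups, from edgeR, with filled points where the adjusted p was under 0.05. Tmem119, Olfml3 and Slc2a5 stand to the right in LL-MDM against MDM, where P2ry12 and Cx3cr1 are at -0.03 and -0.05.

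Between the lipid-laden cells, 3 of the 9 loci were more open in LL-MG than in LL-MDM and 0 less open, against 12% higher and 8.32% lower among all loci. At an unadjusted p under 0.05, 5 were higher and 1 lower, and DESeq2 called 4 higher and 0 lower. The median log2 difference of the 9 was 0.51, against -0.0101 for all loci. Cx3cr1 had 209.8, 201 and 198 CPM in LL-MG, against 148, 145 and 129 CPM in LL-MDM (log2 difference 0.53 ± 0.09, edgeR adjusted p = 0.000128). P2ry12 had 87.8, 96.7 and 89.6 CPM in LL-MG, against 40.2, 47.7 and 49.8 CPM in LL-MDM (0.95 ± 0.23, edgeR adjusted p = 0.0138). Both were separated without overlap. Sparc had 23.1, 29.0 and 29.2 CPM in LL-MG, against 14.5, 17.9 and 16.6 CPM in LL-MDM. Its difference was 0.68 ± 0.20 (edgeR adjusted p = 0.0179), and it missed the threshold without LL-MG 2, LL-MG 3 or LL-MDM 3 (adjusted p 0.0733, 0.0814 and 0.0594). P2ry12 missed it without LL-MDM 2 (adjusted p 0.0552).

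Tmem119 ran the other way. Its locus had 56.3, 60.5 and 54.4 CPM in LL-MG, against 81.2, 69.3 and 70.7 CPM in LL-MDM, and all LL-MDM libraries lay above all LL-MG libraries. The log2 difference of -0.34 ± 0.13 did not pass (edgeR adjusted p = 0.0634). Over the gene span alone, without the flanks, the sign turned to 0.67 (edgeR adjusted p = 0.0228), since the flanking region r6, described with the single regions, ran the other way. Siglech had 69.6, 65.7 and 64.1 CPM in LL-MG, against 38.5, 42.5 and 41.7 CPM in LL-MDM. P2ry13 had 40.8, 36.2 and 41.0 CPM in LL-MG, against 32.5, 27.4 and 25.7 CPM in LL-MDM. Neither pair of groups overlapped, and the adjusted p in edgeR was 0.0601 for Siglech and 0.0752 for P2ry13. The 4 groups share 1 estimate of the spread, so the uneven MG libraries also bear on this comparison. Without MG 2, 7 of the 9 loci passed between LL-MG and LL-MDM, 6 higher and 1 lower, and 3987 of all loci were called in either direction. With all libraries 1863 of all loci were called higher and 1293 lower. The higher ones of the 9 not called with all libraries were Siglech (0.67), P2ry13 (0.51) and Olfml3 (0.39), and the lower one was Tmem119 (-0.34).

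The comparison of LL-MDM with MDM asked what lipid load goes with at microglia marker loci in cells of blood origin. Of the 9 loci, 3 were more open in LL-MDM and 0 less open, against 11.7% higher and 12.2% lower among all loci. The counts were the same at an unadjusted p under 0.05, in DESeq2 and in limma-voom. The median of the 9 was -0.05, against -0.0027 for all loci. Tmem119 had 81.2, 69.3 and 70.7 CPM in LL-MDM, against 31.3, 28.6 and 35.5 CPM in MDM, a log2 difference of 1.20 ± 0.12 (edgeR adjusted p = 4.41e-07). Olfml3 had 43.6, 40.6 and 37.5 CPM in LL-MDM, against 18.5, 21.9 and 15.4 CPM in MDM (1.08 ± 0.22, edgeR adjusted p = 0.00255). In both, every LL-MDM library lay above every MDM library, and both calls were kept when each library was left out in turn. Thinned to the smallest total, Olfml3 was at 0.90 (edgeR adjusted p = 0.0792). Slc2a5 had 53.9, 55.2 and 61.9 CPM in LL-MDM, against 46.3, 39.4 and 40.4 CPM in MDM. Its difference of 0.44 ± 0.13 (edgeR adjusted p = 0.0206) missed the threshold without LL-MDM 2, LL-MDM 3, MDM 2 or MDM 3 (adjusted p 0.0664, 0.112, 0.093 and 0.0667).

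The other 6 loci did not pass, and their log2 differences were all below 0. P2ry12 had 40.2, 47.7 and 49.8 CPM in LL-MDM, against 53.0, 49.4 and 40.6 CPM in MDM (-0.03 ± 0.22). Cx3cr1 had 148, 145 and 129 CPM in LL-MDM, against 148, 137 and 150.0 CPM in MDM (-0.05 ± 0.08). In both genes the groups overlapped. P2ry13, Gpr34, Siglech and Sparc lay between -0.26 and -0.13. Over the gene span alone P2ry13 was lower in LL-MDM than in MDM, by -1.06 (edgeR adjusted p = 0.00807).

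Lipid load in microglia gave fewer calls. Of the 9 loci, 1 was more open in LL-MG than in MG and 0 less open, against 10.3% higher and 7.98% lower among all loci. At an unadjusted p under 0.05, 6 were higher and 0 lower, and DESeq2 called 3 and limma-voom 4, all higher. The median of the 9 was 0.35, against 0.0332 for all loci. The locus called by edgeR was Cx3cr1, with 209.8, 201 and 198 CPM in LL-MG against 183, 157 and 164 CPM in MG (0.28 ± 0.08, edgeR adjusted p = 0.0264). It missed the threshold without any 1 of the 3 LL-MG libraries, MG 2 or MG 3 (adjusted p 0.0619 to 0.12). In all, 8 loci had a positive difference, and Gpr34, with 3.55, 6.19 and 7.20 CPM in LL-MG against 6.73, 9.16 and 9.64 CPM in MG, was at -0.60 ± 0.32. Which libraries were kept decided the count, and the count among all loci moved as well. With all libraries 1603 of all loci were called higher and 1241 lower. Without MG 1, 8 of the 9 loci were called higher in LL-MG, and 5911 of all loci were called in either direction. Without any 1 of LL-MG 1, LL-MG 2, LL-MG 3, MG 2 or MG 3, 0 of the 9 were called (edgeR), and 998 to 1395 of all loci. MG 1 lay within the LL-MG range at Siglech, Olfml3, Sparc and Gpr34, above it at P2ry12 and P2ry13, and below it at Tmem119, Cx3cr1 and Slc2a5. With all libraries, the 5 tested plasmacytoid dendritic cell genes were all called higher in LL-MG than in MG. So were 3 of 6 oligodendrocyte progenitor or tumour cell genes and 2 of 5 tested astrocyte genes, whereas 2 of 3 tested T and NK cell genes were lower.

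The lipid-load difference itself was compared between the lineages by an interaction term, the difference in microglia minus that in MDM. Of the 9 loci, 0 were higher and 1 lower, against 5.94% higher and 2.78% lower among all loci. DESeq2 and limma-voom gave the same counts, and at an unadjusted p under 0.05, 2 were higher and 1 lower. The median of the 9 was 0.28, against -0.0015 for all loci. The 1 called was Tmem119, at -0.85 ± 0.17 (edgeR adjusted p = 0.00452): its locus differed by 0.35 between LL-MG and MG and by 1.20 between LL-MDM and MDM. The call was kept when each library was left out in turn (adjusted p 1.87e-05 to 0.0198), and it was lost over the gene span alone (-0.65, adjusted p 0.154) and with 20 kb on either side (0.24, adjusted p 0.54). Olfml3 was at -0.43 ± 0.31 and did not pass with all libraries. With MG 1 as the single MG library it was at -1.01 (edgeR adjusted p = 0.000488).

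**Figure D3:**
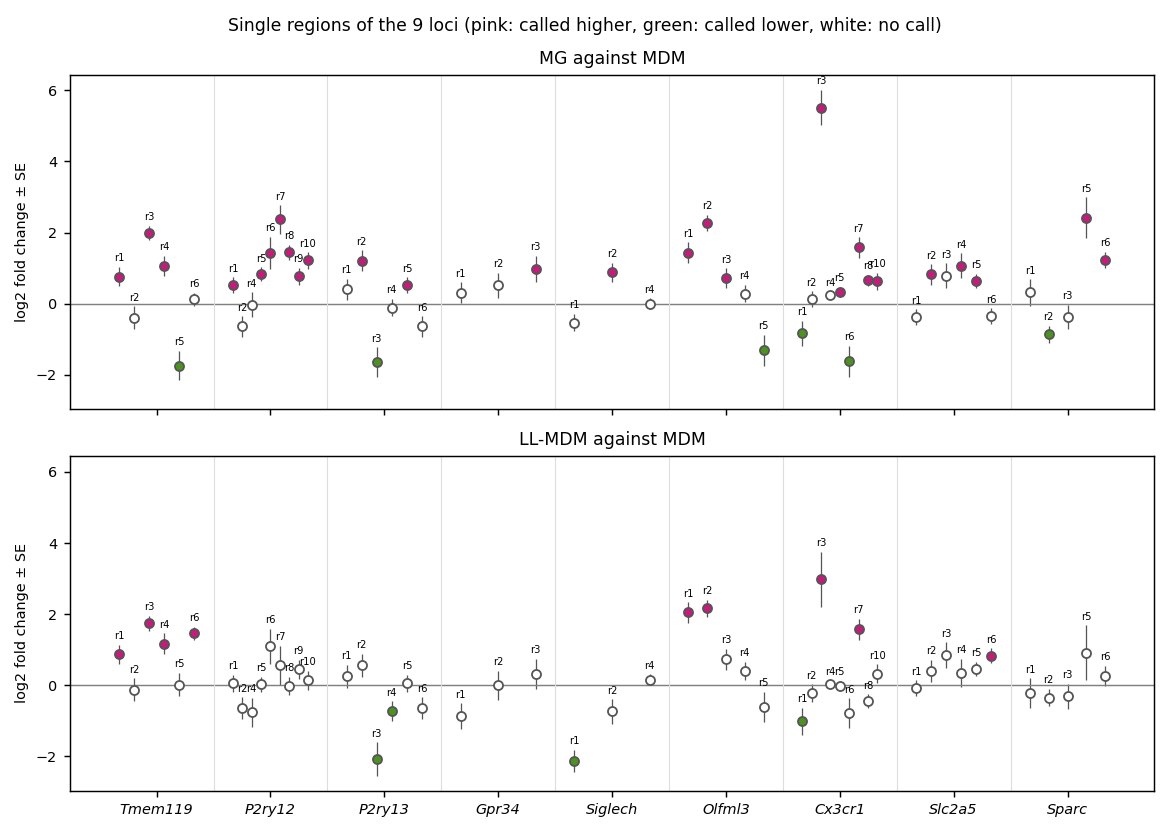
Log2 fold changes ± SE of the tested regions at the 9 loci, in coordinate order within a locus, for MG against MDM (top) and LL-MDM against MDM (bottom). Cx3cr1 r3 has the highest fitted value in both panels, resting on 2, 2 and 0 counts in MDM, and the P2ry12 regions that are called higher in MG have no call in LL-MDM.

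The largest log2 differences of single regions were greater in size than those of the locus sums. Between LL-MG and LL-MDM 16 of the 50 tested regions were more open and 4 less open in LL-MG, against 10.3% higher and 11.2% lower among all regions. Between LL-MDM and MDM 9 were more open and 4 less open in LL-MDM (18% and 8%), against 15.4% and 14.1%. The higher share was thus near that of all regions, and the lower share under it. Between LL-MG and MG 1 was more open and 0 less open in LL-MG, against 4.22% and 8.01%; DESeq2 called 0 in either direction, and at an unadjusted p under 0.05 7 were higher and 4 lower. For the interaction 2 were higher and 3 lower, against 4.56% and 6.34%. The MG against MDM and LL-MDM against MDM comparisons share the MDM libraries, and likewise each pair of comparisons that has a group in common, so their values are given side by side and not as separate evidence. Region coordinates are those of the count table. The gene table gives spans without exons, so exon, intron and UTR positions are not stated.

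Strands were taken from the promoter entries, and Tmem119 had none, so its positions are by coordinate alone. At Tmem119, the region at the high-coordinate end of the gene span (r3, chr5:113800296-113800593) had 25.9, 28.8 and 23.9 CPM in LL-MG, 23.7, 14.4 and 19.4 CPM in MG, 13.5, 16.1 and 16.4 CPM in LL-MDM and 4.89, 4.31 and 5.06 CPM in MDM. It was higher in MG than in MDM by 1.99 ± 0.20 (edgeR adjusted p = 3.97e-10) and higher in LL-MDM than in MDM by 1.74 ± 0.21 (edgeR adjusted p = 1.28e-07). LL-MG still lay above LL-MDM, by 0.73 ± 0.20 (edgeR adjusted p = 0.00809). The most open region of the locus behaved otherwise. It lies in the flank (r6, chr5:113805180-113805737), 12061 bp from the nearest other gene, Selplg, and had 9.08, 10.3 and 10.4 CPM in LL-MG, 12.0, 16.2 and 16.3 CPM in MG, 48.2, 31.8 and 40.6 CPM in LL-MDM and 14.1, 11.5 and 17.2 CPM in MDM. It was thus highest in LL-MDM, by 1.46 ± 0.18 over MDM (edgeR adjusted p = 1.52e-07), and LL-MG lay below LL-MDM by -1.95 ± 0.22 (edgeR adjusted p = 7.15e-08). With 20 kb on either side in place of 5 kb, the locus difference between LL-MDM and MDM was 0.18 and did not pass (edgeR adjusted p = 0.432). Region r5 (chr5:113804273-113804396), named by the authors as a peak of MDM alone, was lower in MG than in MDM, by -1.74 ± 0.41 (edgeR adjusted p = 0.00057), at levels of 0.354 to 1.17 CPM in MG and 2.79 to 3.43 CPM in MDM. It passed the filter on low counts through MDM and LL-MDM libraries, so that these values are a description.

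**Figure D4:**
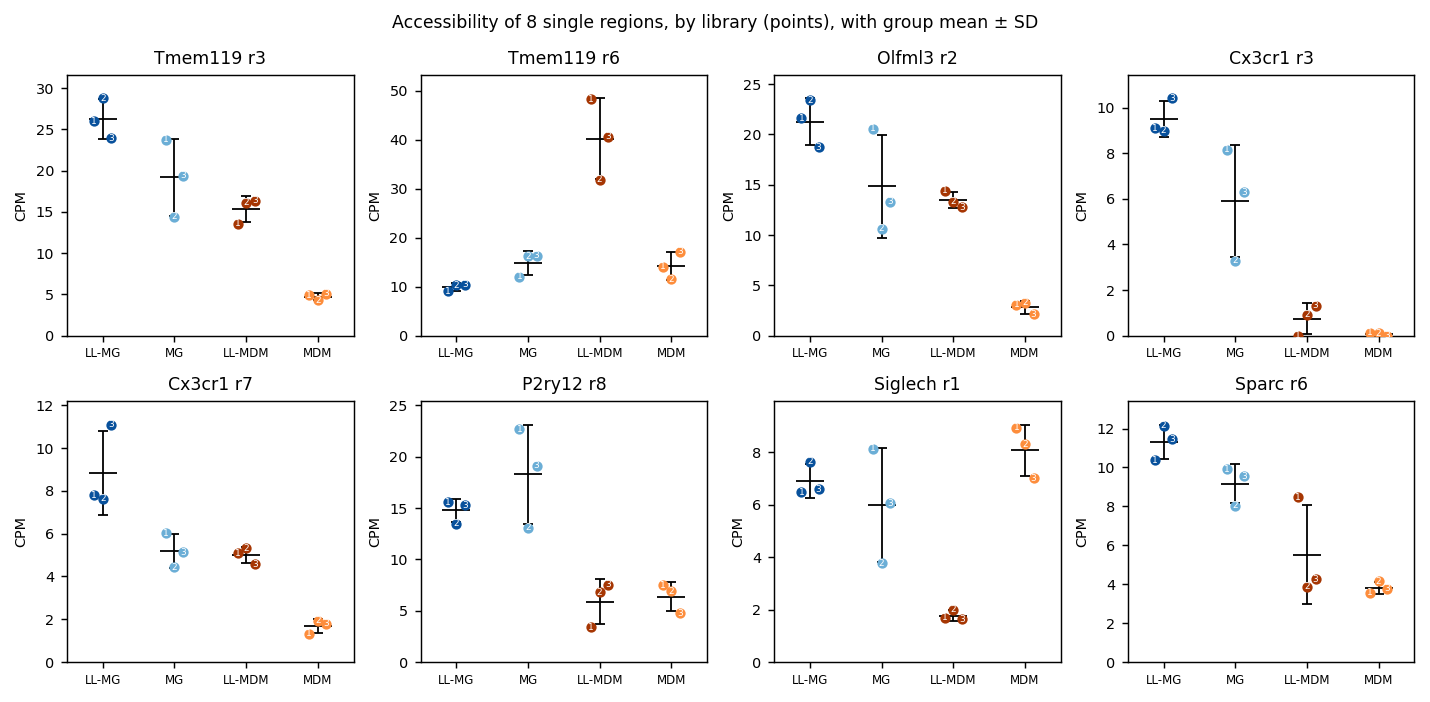
Accessibility of 8 single regions in CPM, with points for libraries 1 to 3 of each group from left to right and bars for the group mean ± SD of 3 libraries. LL-MDM lies between LL-MG and MDM at Tmem119 r3 and Olfml3 r2, P2ry12 r8 is as low in LL-MDM as in MDM, Tmem119 r6 is highest in LL-MDM, and Siglech r1 is lowest there.

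At Olfml3, the region across the far end of the gene (r2, chr3:103735123-103735522) had 21.6, 23.4 and 18.7 CPM in LL-MG, 20.5, 10.6 and 13.3 CPM in MG, 14.4, 13.3 and 12.8 CPM in LL-MDM and 3.07, 3.27 and 2.124 CPM in MDM. Olfml3 r2 was higher in MG than in MDM by 2.27 ± 0.23 (edgeR adjusted p = 9.61e-10) and in LL-MDM than in MDM by 2.17 ± 0.24 (edgeR adjusted p = 5.1e-08). LL-MG was above LL-MDM by 0.67 ± 0.23 (edgeR adjusted p = 0.0372), a call lost without any 1 of 6 libraries. The neighbouring r1 (chr3:103734891-103735039) was higher in LL-MDM than in MDM by 2.05 ± 0.29 (edgeR adjusted p = 1.74e-06), and it was the 1 region called between LL-MG and MG (0.89 ± 0.29, edgeR adjusted p = 0.0421). That call was lost without any 1 of LL-MG 1, LL-MG 2, LL-MG 3, MG 2, MG 3 or MDM 3. Upstream of the gene, r5 (chr3:103740496-103740698) was lower in MG than in MDM, by -1.31 ± 0.44 (edgeR adjusted p = 0.0126), and not without MDM 2 (adjusted p 0.064). Region r5 is named as a peak of MDM alone. It passed the filter on low counts through MDM and LL-MDM libraries, so that its values are a description. The promoter region r3 was higher in MG than in MDM by 0.71 ± 0.28 (edgeR adjusted p = 0.034), with overlap. Between LL-MDM and MDM r3 was at 0.73 ± 0.29 and did not pass (edgeR adjusted p = 0.0582). All counts of Olfml3 also fall in the locus of Hipk1.

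At Cx3cr1, the most open region (r4, chr9:120054679-120055503) had 97.7, 89.9 and 82.6 CPM in LL-MG, 76.9, 78.6 and 76.5 CPM in MG, 65.2, 71.3 and 62.8 CPM in LL-MDM and 63.8, 62.2 and 72.0 CPM in MDM. It held 45.7% of the locus and was called between LL-MG and LL-MDM (0.42 ± 0.12, edgeR adjusted p = 0.0106). A much weaker region inside the gene (r3, chr9:120051748-120051828) is named as a peak of MG alone in the authors' region identifiers. It passed the filter on low counts through the microglial libraries, so that it had to differ, and its values are a description. It had 9.08, 8.99 and 10.4 CPM in LL-MG, 8.15, 3.28 and 6.30 CPM in MG, 0, 0.931 and 1.31 CPM in LL-MDM and 0.140, 0.104 and 0 CPM in MDM. In MDM this was 2, 2 and 0 counts, and a count of 0 allows up to 0.49 CPM in MDM 3 and 2.54 CPM in LL-MDM 1. The fitted log2 difference was 5.51 ± 0.50 between MG and MDM (edgeR adjusted p = 7.78e-11) and 3.33 ± 0.45 between LL-MG and LL-MDM (edgeR adjusted p = 1.8e-06). Between LL-MDM and MDM it was 2.98 ± 0.78 (edgeR adjusted p = 0.00366) with overlapping libraries, and it missed the threshold without LL-MDM 2 (adjusted p 0.0671).

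Other Cx3cr1 regions were called as well, and r7 and r1 also in a comparison where the locus sum was not. The region inside the gene near its start (r7, chr9:120065915-120066037) had 7.78, 7.64 and 11.1 CPM in LL-MG, 6.02, 4.42 and 5.13 CPM in MG, 5.08, 5.32 and 4.58 CPM in LL-MDM and 1.33, 1.92 and 1.80 CPM in MDM. Region r7 was higher in LL-MDM than in MDM by 1.58 ± 0.30 (edgeR adjusted p = 0.000131) although the locus was not called. In the same comparison r1 was lower in LL-MDM, by -1.015 ± 0.38 (edgeR adjusted p = 0.0412). The authors' region identifiers name r7 as a peak of LL-MG and MG alone. The promoter (r8, whose upstream bases are printed) had 22.5, 18.0 and 22.9 CPM in LL-MG, 27.3, 30.3 and 23.3 CPM in MG, 16.9, 12.2 and 11.1 CPM in LL-MDM and 19.1, 14.6 and 18.5 CPM in MDM. It was higher in MG than in MDM by 0.65 ± 0.16 (edgeR adjusted p = 0.000994) and in LL-MG than in LL-MDM by 0.75 ± 0.21 (edgeR adjusted p = 0.00855). Against the direction of the locus, r6 (chr9:120064463-120064563) was lower in MG than in MDM by -1.62 ± 0.44 (edgeR adjusted p = 0.00248) and r1 (chr9:120046660-120046809) by -0.84 ± 0.35 (edgeR adjusted p = 0.0456). The r1 call was lost in 9 of 12 fits that left out 1 library. Both r1 and r6 are named as peaks of MDM alone in the authors' region identifiers. Region r6 passed the filter on low counts through LL-MG and MDM libraries and not through MG, so that its values are a description.

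**Figure D5:**
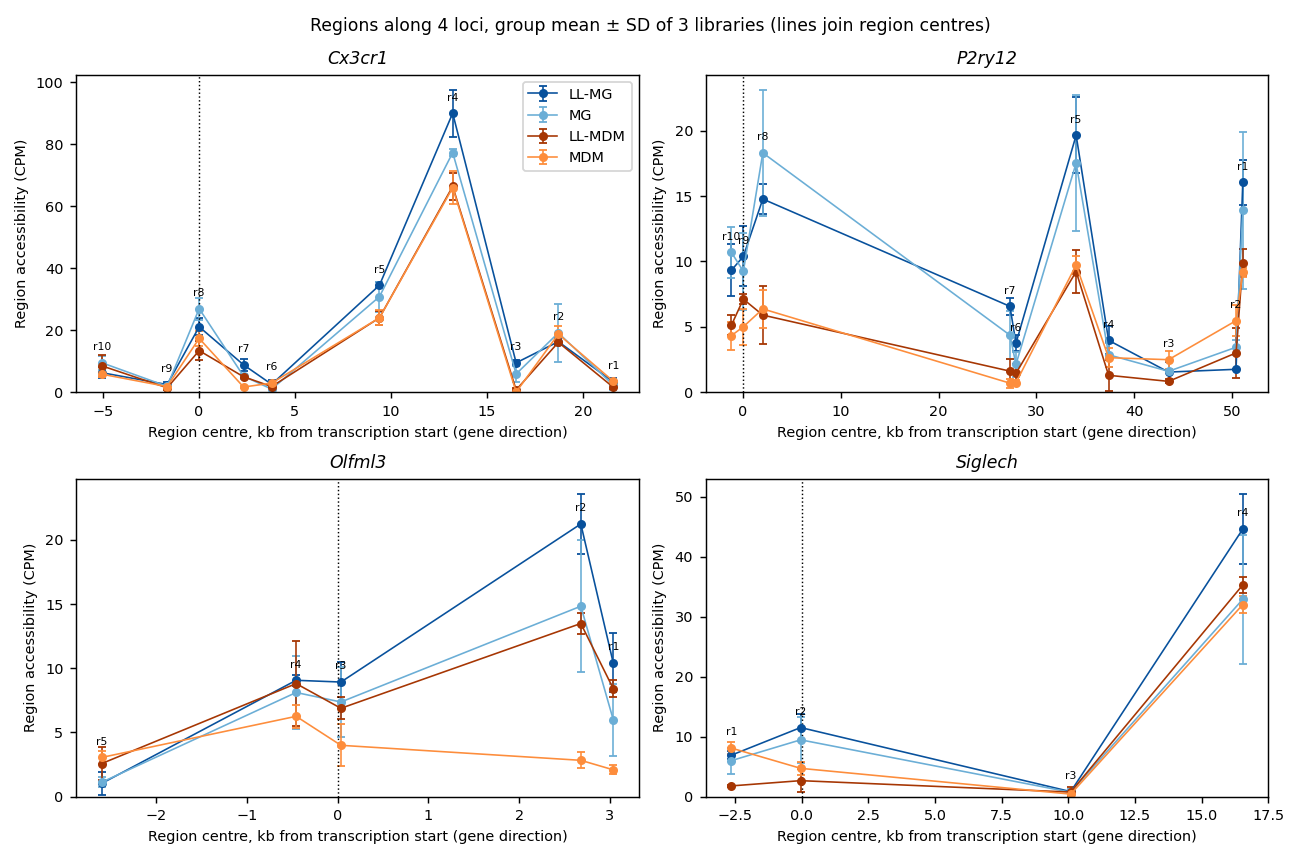
Group mean ± SD of region CPM (3 libraries each) along Cx3cr1, P2ry12, Olfml3 and Siglech, against the distance of each region's centre from the transcription start in kb, in the direction of the gene. Lines only join region centres. The LL-MDM and MDM lines lie together along P2ry12, whereas LL-MDM lies above MDM at Olfml3 r1 and r2 and below it at Siglech r1.

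P2ry12 had 9 tested regions. Of these, 7 were more open in MG than in MDM, against 26.8% of all regions, and 5 in LL-MG than in LL-MDM, against 10.3%. Between LL-MDM and MDM 0 were called (edgeR), against 15.4% higher and 14.1% lower among all regions. At an unadjusted p under 0.05 were r6 (1.097) and r2 (-0.64). Region r8 (chr3:59260800-59261106), inside the gene near its start, had 15.6, 13.5 and 15.3 CPM in LL-MG, 22.7, 13.1 and 19.1 CPM in MG, 3.39, 6.79 and 7.52 CPM in LL-MDM and 7.47, 6.91 and 4.74 CPM in MDM. It differed by 1.44 ± 0.22 between MG and MDM (edgeR adjusted p = 1.07e-06) and by 1.18 ± 0.27 between LL-MG and LL-MDM (edgeR adjusted p = 0.00168). Region r7 (chr3:59235597-59235807) had 6.92, 5.84 and 6.94 CPM in LL-MG, 5.67, 2.29 and 5.13 CPM in MG, 2.54, 0.665 and 1.64 CPM in LL-MDM and 0.977, 0.779 and 0.327 CPM in MDM. Its differences were 2.37 ± 0.40 (edgeR adjusted p = 6.78e-06) and 2.51 ± 0.48 (edgeR adjusted p = 0.000233). Region r7 is named as a peak of LL-MG and MG alone. Regions r6 and r7 passed the filter on low counts through the microglial libraries, so that their values are a description. Both count among the 7. The most open region of the locus, r5 (chr3:59228750-59229118), held 21.3% of it and had 17.3, 22.9 and 18.7 CPM in LL-MG, 19.5, 11.6 and 21.5 CPM in MG, 7.62, 10.9 and 9.16 CPM in LL-MDM and 9.91, 8.98 and 10.3 CPM in MDM. It was higher in MG than in MDM by 0.83 ± 0.20 (edgeR adjusted p = 0.000794) and in LL-MG than in LL-MDM by 1.00 ± 0.24 (edgeR adjusted p = 0.00242). The promoter region r9 was higher in MG than in MDM by 0.77 ± 0.25 (edgeR adjusted p = 0.00972), with overlap. All counts of P2ry12 and P2ry13 also fall in the locus of Med12l.

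P2ry13 is the neighbouring ADP receptor. Region r2 (chr3:59206718-59206855) was higher in MG than in MDM by 1.21 ± 0.29 (edgeR adjusted p = 0.000634). Region r3 (chr3:59208162-59208298) was lower, by -1.65 ± 0.42 (edgeR adjusted p = 0.00119), with 1.77, 1.15 and 0.70 CPM in MG against 3.56, 3.32 and 4.25 CPM in MDM. It was also lower in LL-MDM than in MDM, by -2.07 ± 0.47 (edgeR adjusted p = 0.000978). Region r3 is named as a peak of MDM alone. It passed the filter on low counts through the MDM libraries, so that its values are a description. The promoter region r4 had 5.08, 4.39 and 4.25 CPM in LL-MDM, against 7.26, 7.74 and 6.86 CPM in MDM (-0.72 ± 0.27, edgeR adjusted p = 0.0433). Its most open region, r5, with 35.9% of the locus, is P2ry12 r1.

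The Siglech upstream region r1 (chr7:55765374-55765720) had 6.49, 7.64 and 6.59 CPM in LL-MG, 8.15, 3.77 and 6.06 CPM in MG, 1.69, 2.00 and 1.64 CPM in LL-MDM and 8.94, 8.31 and 7.02 CPM in MDM. LL-MDM was the low group, by -2.13 ± 0.32 against MDM (edgeR adjusted p = 4.52e-06), and LL-MG lay above LL-MDM by 1.88 ± 0.37 (edgeR adjusted p = 0.000307). The promoter region r2 had 9.51, 13.9 and 11.1 CPM in LL-MG, 13.8, 6.88 and 7.70 CPM in MG, 0.846, 2.53 and 4.58 CPM in LL-MDM and 5.45, 5.24 and 3.43 CPM in MDM. It was higher in LL-MG than in LL-MDM by 1.97 ± 0.36 (edgeR adjusted p = 0.000121) and in MG than in MDM by 0.88 ± 0.27 (edgeR adjusted p = 0.0061), though not without MG 1 (0.53, adjusted p 0.0663) and not with libraries thinned to the smallest total (0.25, adjusted p 0.711). The most open region, r4 (chr7:55784366-55785097), held 72.9% of the locus and was not called in any comparison.

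Slc2a5 and Sparc had no region at the promoter window, and their differences lay inside the genes. Slc2a5 r5 (chr4:150136684-150137016) was higher in MG than in MDM by 0.65 ± 0.19 (edgeR adjusted p = 0.00541), with 17.4, 11.0 and 16.1 CPM in MG against 9.91, 8.98 and 8.66 CPM in MDM. The next region, r6 (chr4:150138136-150138457), was the one more open in lipid-laden MDM, with 6.92, 12.1 and 11.4 CPM in LL-MG, 7.09, 8.68 and 11.9 CPM in MG, 20.3, 19.2 and 24.5 CPM in LL-MDM and 12.8, 9.35 and 14.4 CPM in MDM. It was lower in LL-MG than in LL-MDM by -1.05 ± 0.25 (edgeR adjusted p = 0.00194) and higher in LL-MDM than in MDM by 0.83 ± 0.21 (edgeR adjusted p = 0.0023). The LL-MDM against MDM call missed the threshold without MDM 2 (adjusted p 0.0559).

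Sparc r6 (chr11:55418212-55418395) had 10.4, 12.1 and 11.4 CPM in LL-MG, 9.92, 8.03 and 9.56 CPM in MG, 8.46, 3.86 and 4.25 CPM in LL-MDM and 3.56, 4.15 and 3.76 CPM in MDM. Sparc r6 was higher in MG than in MDM by 1.23 ± 0.23 (edgeR adjusted p = 4.45e-05) and in LL-MG than in LL-MDM by 1.28 ± 0.29 (edgeR adjusted p = 0.00125). With libraries thinned to the smallest total the LL-MG against LL-MDM value was 0.73 and did not pass (edgeR adjusted p = 0.208). At the other end of the gene r2 (chr11:55394696-55395363) was lower in MG than in MDM, by -0.87 ± 0.25 (edgeR adjusted p = 0.00406). It was also lower in LL-MG than in LL-MDM (-0.93 ± 0.34, edgeR adjusted p = 0.0485), a call lost in 8 of 12 fits without 1 library. Gpr34, on chromosome X, had 3 weak regions, all inside its span and in the locus of Cask. The most open, r1, held 35.6% of the locus and was not called. The 1 called, r3 (chrX:13636513-13636675), had 2.83, 2.78 and 3.73 CPM in MG against 1.88, 1.82 and 0.490 CPM in MDM (0.97 ± 0.37, edgeR adjusted p = 0.0283), and no DESeq2 call (adjusted p 0.0955).

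The order of the group means differed between the loci. It was LL-MG, MG, MDM, LL-MDM from high to low at P2ry12, P2ry13, Siglech, Cx3cr1 and Sparc, where MDM and LL-MDM overlapped in all but Siglech, and LL-MG and MG, and also MG and MDM, in all but Cx3cr1. It was LL-MG, LL-MDM, MG, MDM at Olfml3 and Slc2a5, where LL-MDM and MG overlapped, and LL-MDM, LL-MG, MG, MDM at Tmem119, where no neighbours overlapped. Gpr34 had no neighbours apart. Per kb of region covered, the mean level at Cx3cr1 was 75.8 CPM per kb in LL-MG, 62.8 in MG, 52.5 in LL-MDM and 54.1 in MDM. This was the highest of the 9 loci in LL-MG, MG and MDM, whereas Tmem119 was higher in LL-MDM, at 53.7 CPM per kb. Gpr34 had 11.3, 17.1, 10.2 and 12.8 CPM per kb in the same order of groups, the lowest of the 9 except in MG, where Sparc had 16.3 CPM per kb.

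Genes with the most similar profile were taken among all tested loci, as the highest Pearson r of log2 CPM over the 12 libraries, leaving out loci that share a region or lie within 500 kb. The libraries fall into 4 groups, so these values describe likeness and were not tested. For Tmem119 the 3 were Gm46911 (r = 0.97), Ogg1 (0.97), a repair glycosylase for oxidised guanine, and Slc38a6 (0.95). For Olfml3 they were Pon1 (0.98), Scamp1 (0.97) and C2cd4b (0.97), and for Slc2a5 Rin2 (0.95), Wscd2 (0.95) and Atp8b3 (0.95). For P2ry12 they were Cecr2 (0.97), Efr3b (0.97) and Lix1 (0.97), and for Cx3cr1 Atp8a2 (0.97), Fabp1 (0.97) and Soga1 (0.96). The gene most like Siglech was Tcf4 (0.98), the transcription factor of plasmacytoid dendritic cells, and that most like P2ry13 was Mef2c (0.95), a MEF2 factor of the microglial programme. Sparc was most like the neuronal gene Rbfox3 (0.95), and Gpr34 most like Smim19 (0.95).

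Other genes of the microglial programme and its neighbours were counted from lists, with the locus backgrounds already given. Of 16 regulators and genes of transforming growth factor beta signalling, 15 were tested, and 9 were more open and 1 less open in MG than in MDM, with a median log2 difference of 0.39. Sall1 differed by 5.88 ± 0.29 (edgeR adjusted p = 2.73e-10), its relative Sall3 by 2.92 ± 0.23 (edgeR adjusted p = 2.5e-09) and Bhlhe41, a transcriptional repressor, by 2.16 ± 0.19 (edgeR adjusted p = 2.04e-06). Tgfbr2, a receptor chain for the cytokine, differed by 0.50 ± 0.08 (edgeR adjusted p = 5.55e-05). The 1 lower gene was the cytokine Tgfb1, at -0.32 ± 0.08 (edgeR adjusted p = 0.00164). Between LL-MDM and MDM 5 were higher, with a median of 0.19: Sall1 by 3.30 ± 0.39 (edgeR adjusted p = 2.88e-05), Bhlhe41 by 1.82 ± 0.20 (edgeR adjusted p = 6.74e-05), Sall3 by 1.44 ± 0.27 (edgeR adjusted p = 0.000671) and Tgfbr1 by 0.30 ± 0.08 (edgeR adjusted p = 0.00733) led them. At Sall1 every LL-MDM library lay below every LL-MG and MG library.

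Of 24 other genes enriched in microglia, 9 were more open and 6 less open in MG than in MDM (median 0.18). Slco2b1, an organic anion transporter, was higher by 2.29 ± 0.14 (edgeR adjusted p = 5.74e-09) and the Fc receptor-like gene Fcrls by 1.39 ± 0.22 (edgeR adjusted p = 3.28e-05). Lower were Cd33, a sialic acid-binding lectin (-1.04 ± 0.105, edgeR adjusted p = 7.99e-08), and Selplg, the selectin ligand next to Tmem119 (-0.75 ± 0.11, edgeR adjusted p = 1.67e-05). Between LL-MDM and MDM 7 were higher and 5 lower (median 0.04). The complement genes C1qa (1.11 ± 0.16, edgeR adjusted p = 0.000207) and C1qc (1.116 ± 0.18, edgeR adjusted p = 0.000934) were higher, and Selplg (-0.91 ± 0.12, edgeR adjusted p = 2e-05) and the interleukin-10 receptor chain Il10ra (-0.55 ± 0.09, edgeR adjusted p = 0.000154) lower.

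Among 11 further purine receptors and ectonucleotidases, 3 were more open and 3 less open in MG than in MDM (median -0.02). P2rx7, an ATP-gated channel, was higher by 0.60 ± 0.09 (edgeR adjusted p = 8.06e-06) and the adenosine receptor Adora3 by 0.44 ± 0.10 (edgeR adjusted p = 0.000844). P2ry14, which lies in the same receptor cluster as P2ry12 and P2ry13, was lower, with 62.0, 72.7 and 71.4 CPM in MG against 119 CPM in each MDM library (-0.78 ± 0.08, edgeR adjusted p = 9.96e-08). Adora2a was lower by -0.95 ± 0.18 (edgeR adjusted p = 0.0011). Between LL-MDM and MDM 3 were higher and 1 lower (median 0.05): P2ry2 by 0.60 ± 0.09 (edgeR adjusted p = 6.7e-05), P2rx7 by 0.41 ± 0.09 (edgeR adjusted p = 0.00227), the ectonucleotidase Nt5e by 0.61 ± 0.19 (edgeR adjusted p = 0.0237), and P2ry14 by -0.53 ± 0.08 (edgeR adjusted p = 0.000112).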

How the data were processed

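The authors deposited a table of raw read counts in 117835 regions for 12 libraries. The build was mm10 and the tools were deepTools 3.5.1, Picard 2.12.0, SAMtools 1.10 and BWA 0.7.17-r1188, per the submitters' processing notes. Per the labels' protocols, nuclei were tagmented with Tn5 and amplified by PCR. Not given in the sources used here were the peak caller, the handling of duplicates, any Tn5 shift and whether a region's start counts from 0 or 1.

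Regions were assigned to RefSeq gene spans (GRCm38.p6) with 5 kb on either side, and counts were summed per locus, so 13.7% of regions in a locus count for more than 1 gene. Locus and region counts were tested separately with edgeR 4.0.16 (TMM scaling, low-count filter, robust quasi-likelihood test, R 4.3.3) over all 12 libraries, with Benjamini-Hochberg adjustment over all 15548 loci or 77737 regions tested. Standard errors were derived from the F statistic. CPM values use the region totals, scaled by TMM factors from regions for regions and by TMM factors from loci for loci. DESeq2 1.42.0 and limma 3.58.1 (voom) were alternatives. The scripts were tested on simulated data. Counting limits for 0 counts cover counting error only, with 3 counts as the limit. Depth ranged from 1162969 to 18938222 counts per library.

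The 9 genes, the gene lists and the tests were chosen with earlier results of these data known. Named regions are the most open at each locus, the called region with the smallest p in each comparison, and those called against their locus. The promoter regions P2ry12 r9, P2ry13 r4, Olfml3 r3 and Cx3cr1 r8 were added for their printed sequences, after their values were seen. Up to 4 called genes with the smallest p were named per list. Replicates of a group differed by more than sampling noise or about as much as it allows (chi-square per degree of freedom 1.119 to 5.82), and none was merged.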

Additional observations from a re-analysis of the deposited data

Results flagged for a closer look

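The contrast of LL-MG with MG was set against that of LL-MDM with MDM at each locus and region, as the difference of the 2 log2 fold changes, and 6 of these tests passed (edgeR). They were 1 of 9 loci, against 5.94% higher and 2.78% lower among all loci, and 5 of 50 regions. Of the regions 4% were higher and 6% lower, near the 4.56% and 6.34% among all regions. At the Tmem119 locus the difference was -0.85 on the log2 scale, at Tmem119 r3 -1.26 and at Tmem119 r6 -2.06. At Olfml3 r2 it was -1.60. In these 4 the lipid-load difference was more positive in MDM than in microglia. With libraries thinned to the smallest total, Tmem119 r3 was at -0.97 (edgeR adjusted p = 0.241) and Olfml3 r2 at -1.05 (edgeR adjusted p = 0.325), and neither passed.

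At Siglech r1 it was 2.41, with LL-MDM the lowest group. At Cx3cr1 r6 it was 2.18, with 3.89, 2.70 and 1.04 CPM in LL-MG, 1.42, 0.655 and 0.933 CPM in MG, 1.69, 1.20 and 2.62 CPM in LL-MDM and 3.00, 2.44 and 3.43 CPM in MDM. Cx3cr1 r6 passed the filter on low counts through LL-MG and MDM libraries, the groups that raise this difference, so that its values are a description. The Cx3cr1 r6 result was not called by DESeq2 (2.22, adjusted p 0.101) or limma-voom (2.05, adjusted p 0.0646), and it was lost in 8 of 12 fits that left out 1 library (adjusted p up to 0.19). With MG 1 as the single MG library it was 1.56 (edgeR adjusted p = 0.338).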

How the results depend on the processing

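No label ties libraries to animals without conflict, but the library names run in 3 sets of 4 consecutive numbers with 1 library of each group. A replicate block by these sets, chosen after seeing the data, called 5 loci for LL-MG against LL-MDM (3 without it) and 4 for LL-MG against MG (1 without it), and left the other locus and region counts within 1.5 times. Deviations from the group means correlated over 0.1 in 1 of 18 pairs of 1 set (-0.139 to 0.108) and in 5 of 36 pairs of different sets, and 2 of 12 libraries correlated best with their own set, so that the numbers were not taken to pair the libraries. With 1 library left out at a time, the 9 loci gave 2 to 5 calls for MG against MDM (4 with all libraries; 2 without MG 3), 2 to 7 for LL-MG against LL-MDM (3; 7 without MG 1 or MG 2), 2 to 3 for LL-MDM against MDM (3), 0 to 8 for LL-MG against MG (1; 8 without MG 1) and 1 to 4 for the interaction (1; 4 without MG 1, 2 without MG 2). The regions gave 23 to 31 (32), 11 to 24 (20), 8 to 19 (13), 0 to 14 (1) and 4 to 12 (5) calls in the same order. Calls among all loci moved as well, and for LL-MG against MG they were 998 without LL-MG 1 and 5911 without MG 1. Without MG 2 and MG 3, with MG 1 as the single MG library assumed to vary like the other groups, the loci gave 7 calls for MG against MDM, 7 for LL-MG against LL-MDM, 0 for LL-MG against MG and 2 for the interaction, Siglech was at 0.55 and Cx3cr1 r1 at 0.0923 for MG against MDM, where P2ry13 r3 (-1.02), Cx3cr1 r6 (-0.998) and Sparc r2 (-0.96) were no longer called, and 0 regions were called for LL-MG against MG.

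With groups set by the titles, 0 loci and 0 regions were called for MG against MDM, for LL-MG against LL-MDM and for the interaction, among all tested ones as well. Of the members, 1 locus was called for LL-MDM against MDM and 7 regions for LL-MG against MG, where 2001 of all loci and 8252 of all regions were called. Signs turned for MG against MDM at Cx3cr1 (-0.11), Tmem119 r5 (0.14), P2ry12 r8 (-0.0035), P2ry13 r2 (-0.0318), Olfml3 r5 (0.52), Cx3cr1 r3 (-0.0636) and Slc2a5 r5 (-0.0181). They turned for LL-MG against LL-MDM at P2ry12 (-0.33), Sparc (-0.23), Tmem119 r3 (-0.17), P2ry12 r7 (-0.11), Siglech r2 (-0.37), Olfml3 r2 (-0.18), Cx3cr1 r3 (-0.0791) and Sparc r6 (-0.0887), for LL-MDM against MDM at P2ry12 (1.00), Siglech r1 (0.26) and Slc2a5 r6 (-0.57), and for the interaction at Siglech r1 (-0.0652).

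With libraries thinned to the smallest total, 2 loci were called for MG against MDM, 1 for LL-MDM against MDM and 2 for the interaction, and 8, 8, 6, 0 and 1 regions in the 5 comparisons, where fewer regions were tested. Calls also lost there were, for MG against MDM, Cx3cr1 (0.16), P2ry13 r2 (1.28) and Slc2a5 r5 (0.82), for LL-MG against LL-MDM, Sparc (0.44) and Olfml3 r2 (0.85), for LL-MDM against MDM, Slc2a5 (0.49) and Cx3cr1 r3 (3.155), and for LL-MG against MG, Cx3cr1 (0.21) and Olfml3 r1 (0.63), at edgeR adjusted p of 0.0563 to 0.461. Over the gene span alone 5, 2 and 0 loci were called for LL-MG against LL-MDM, LL-MG against MG and the interaction, and Siglech (MG against MDM, 0.75) and Tmem119 (LL-MG against LL-MDM, 0.67) changed sign. With 20 kb on either side Tmem119 changed sign for MG against MDM (-0.0798) and the interaction (0.24), and 0 loci were called for the interaction. Without shared regions, which leaves 5 loci, 2 were called for MG against MDM and 0 for LL-MG against MG. For LL-MG against MG, DESeq2 called 3 loci and 0 regions, limma-voom 4 and 3, RLE factors 3 regions and total counts 4 regions. TMM from regions, chosen after seeing the data, called 5 loci for LL-MG against LL-MDM and 0 for LL-MG against MG, and moved the median of all loci to 0.14 for MG against MDM, -0.138 for LL-MG against MG and -0.185 for the interaction. Other calls of single loci and regions were also lost under single settings. Values without a call changed sign in 19 cases under the titles and in 1 to 6 cases under each of the other settings that turned any. The cause of these changes was not tested.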

Other observations

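Of 20 genes linked to disease-associated microglia, 9 were higher and 6 lower in MG than in MDM (edgeR). Among all loci 19.8% were higher and 21.2% lower. Ctsd, a lysosomal protease, was higher by 1.48 ± 0.10 (edgeR adjusted p = 1.72e-10), and Clec7a, a receptor for fungal glucan, lower by -1.83 ± 0.135 (edgeR adjusted p = 7.47e-10). In LL-MDM against MDM 8 were higher and 2 lower, against 11.7% higher and 12.2% lower among all loci. The 2 lower ones were Clec7a and Itgax. Cd63, a tetraspanin of endosomes, was higher by 0.82 ± 0.08 (edgeR adjusted p = 7.36e-07), Gpnmb, a lysosomal glycoprotein, by 0.97 ± 0.12 (edgeR adjusted p = 1.27e-05) and Apoe, a lipid carrier, by 0.66 ± 0.11 (edgeR adjusted p = 0.00027).

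Of 15 genes typical of monocyte-derived macrophages, 14 were tested. In MG against MDM 0 were higher and 11 lower (edgeR), against 19.8% and 21.2% of all loci. H2-Aa, an antigen-presenting chain, was lower by -3.06 ± 0.11 (edgeR adjusted p = 1.91e-14). In LL-MDM against MDM 2 were higher and 7 lower, against 11.7% and 12.2% of all loci. The 2 higher ones were Mgst1 and Cd44. Among the lower were H2-Aa at -2.01 ± 0.10 (edgeR adjusted p = 4.45e-11) and Plac8, a myeloid protein, at -0.98 ± 0.13 (edgeR adjusted p = 2.41e-05). The summed level of the list was 519 to 569 CPM in LL-MG, 474 to 550.2 CPM in MG, 777 to 827 CPM in LL-MDM, and MDM held 1023 to 1102 CPM.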
